A study of Mus musculus with 9 samples.

Results

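The adrenergic receptors described here are 8 genes, Adrb3, Adrb1, Adra1a, Adra1b, Adra1d, Adra2a, Adra2b and Adra2c, taken by symbol from a count table of 55416 Ensembl genes from mouse brown fat. All 8 matched 1 row each, and 4 of them (Adrb3, Adra1a, Adrb1 and Adra1d) had a mean of at least 1 CPM (the count as a share of the sum of its column, scaled so that each column sums to 1000000). The same mean was reached by 12260 of all the genes. The rule takes the genes by symbol and uses no measured value.

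The samples are interscapular brown adipose tissue (BAT) of C57BL/6J mice that express Cas9, at 8 to 10 weeks of age. An adeno-associated virus of serotype 8 was injected into the tissue, carrying either a guide RNA against Ucp1 (AAV8-UCP1 sgRNA, 4 samples) or a control guide (AAV8-Control sgRNA, 5 samples). Every animal therefore carries Cas9 and received a vector, and all were housed at 22 °C for 14 days. The labels do not say which promoter or cells drive Cas9, nor whether each sample is a single animal. The 9 value columns of the table have names that give the tissue and a number found in no label, and no guide. They are called columns A to I here, in the order of the table, and the letters carry no other meaning. All 9 were used as BAT columns and 0 were given to a guide, so that each spread below mixes both guides, and no comparison between guides is made. That these columns are the 9 labelled samples rests on the tissue in their names and on their number.

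Adrenergic receptors are the cell-surface proteins through which noradrenaline from sympathetic nerves acts on brown fat. Beta receptors couple to the stimulatory G protein, raise cyclic AMP and activate protein kinase A, which drives lipolysis and the thermogenic gene programme. Alpha-1 receptors couple to Gq and phospholipase C, which release calcium from internal stores, and alpha-2 receptors couple to Gi, which lowers cyclic AMP. In rodent fat the beta-3 receptor is the subtype best known for thermogenesis.

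Column sums ran from 15460829 to 17909534 counts. The share of counts from the mitochondrial genome ran from 22.3% to 33.9%. It was 31.5% to 33.9% in columns A to E and 22.3% to 26.5% in columns F to I. Brown adipocyte markers were abundant in every column, with a summed level of 6924 to 10170 CPM for 9 of 9 genes, Ucp1 left out. The summed level of 7 skeletal muscle markers was the most uneven of the tissue lists, from 163 CPM in column B to 3020 CPM in column E. Summed levels were 277 to 571 CPM for 6 smooth muscle and pericyte markers, 377 to 587 CPM for 5 endothelial markers, 141 to 334 CPM for 5 fibroblast and precursor markers, 38.3 to 128 CPM for 5 white adipocyte markers and 8.07 to 20.5 CPM for 5 immune markers. Fewer cells of a type and less RNA per cell cannot be told apart in bulk tissue.

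Ucp1, the gene that the guide targets and the uncoupling protein of brown fat mitochondria, ran from 396 to 4620 CPM. Its columns fell into separate clusters: 4 columns lay at or under 606 CPM and 5 at or above 2704 CPM, a gap of 2.16 on the log2 scale, which is 0.61 of the whole range. The lower cluster is columns F to I, those with the lower mitochondrial share. Because of these clusters a coefficient over all 9 columns was left out by choice. Neither cluster holds the 6 columns required here for one of its own, so the rank relation between the receptors and Ucp1 was not tested.

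The beta-3 receptor gene Adrb3 had the highest level of the 8 in every column. Its counts were 3439 in column A, 3659 in B, 2940 in C, 4606 in D, 4680 in E, 3931 in F, 4861 in G, 2319 in H and 3800 in I. In the same order these are 206, 226, 178, 269, 303, 220, 282, 130 and 214 CPM. The level was highest in column E and lowest in column H, which differed 2.32-fold. Its mean lay above that of 99.2% of all 55416 genes in the table, of which only 25095 had a count in at least 1 column. The antisense gene Gm45470 overlaps exons of Adrb3 on the opposite strand in GENCODE M21 and had 138 to 285 counts a column. The strand setting of the counting is not given in the sources used here, so reads of the pair cannot be told apart where they overlap.

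Adrb1, which encodes the beta-1 receptor, the main beta subtype of heart, was far lower. Its levels were 37.8 CPM in column A, 23.3 in B, 27.3 in C, 38.0 in D, 15.0 in E, 25.7 in F, 32.4 in G, 33.1 in H and 49.5 in I. The counts behind them ran from 232 to 878. The lowest value fell in column E, the column in which Adrb3 was highest, and the highest in column I, a 3.30-fold range. Without column E the range of Adrb1 was 2.12-fold.

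Adra1a, the alpha-1A receptor gene, was the alpha subtype with the highest level. Its levels were 87.7 CPM in column A, 65.4 in B, 89.8 in C, 83.6 in D, 69.7 in E, 89.8 in F, 97.6 in G, 73.1 in H and 88.5 in I, from 1056 to 1680 counts. It had the narrowest range of the 4 receptors above 1 CPM, at 1.49-fold, with column B lowest and column G highest.

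Adra1d, the alpha-1D receptor gene, a subtype known from vascular smooth muscle, stood at 13.3 CPM in column A, 9.47 in B, 13.2 in C, 12.4 in D, 8.28 in E, 5.64 in F, 8.42 in G, 14.5 in H and 14.5 in I. The counts were 101 to 257. The lowest column was column F, 2.57-fold below the highest. Without column F the range was 1.75-fold. Column F also had the lowest summed level of smooth muscle and pericyte markers, 277 CPM, and column E, where Adra1d stood at 8.28 CPM, had the highest, 571 CPM. Their part in the level of Adra1d was not tested. The antisense gene Gm14285 overlaps exons of Adra1d on the opposite strand in GENCODE M21 and had 0 to 11 counts a column. Where they overlap, reads of this pair cannot be told apart either.

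The other 4 genes were close to the counting floor. Adra1b, the alpha-1B receptor gene, had 0 to 5 counts and no count in 3 columns, B, D and G. For these counts of 0 the 95% interval of counting error reaches up to 0.228 CPM in B, 0.216 in D and 0.214 in G. Adra2a, the alpha-2A receptor gene, had 0 to 8 counts, with the 0 in column D. Adra2b had 2 to 9 counts and Adra2c 2 to 17, the latter highest in column E at 1.10 CPM. The 4 genes together gave 169 of the 53590 receptor counts in the 9 columns, or 0.315%. These limits cover counting error only.

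Promoter sequence was at hand for 5 of the 8 genes (RefSeq, GRCm38.p6), and the windows of Adrb1 and Adra2a are shown because both genes lie on chromosome 19 and both windows are rich in CpG, while Adrb1 was transcribed and Adra2a nearly was not. Each is the 250 bases before the annotated start, Adrb1 at chr19:56721867-56722116 and Adra2a at chr19:54045009-54045258, both on the plus strand. Capitals mark the GC box, GGGCGG or its reverse complement.
Adrb1: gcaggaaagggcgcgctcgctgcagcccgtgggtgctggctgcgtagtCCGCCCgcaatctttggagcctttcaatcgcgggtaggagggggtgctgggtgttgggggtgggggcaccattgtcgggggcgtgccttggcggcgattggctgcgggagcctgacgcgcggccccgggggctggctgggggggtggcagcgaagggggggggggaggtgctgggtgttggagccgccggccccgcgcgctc
Adra2a: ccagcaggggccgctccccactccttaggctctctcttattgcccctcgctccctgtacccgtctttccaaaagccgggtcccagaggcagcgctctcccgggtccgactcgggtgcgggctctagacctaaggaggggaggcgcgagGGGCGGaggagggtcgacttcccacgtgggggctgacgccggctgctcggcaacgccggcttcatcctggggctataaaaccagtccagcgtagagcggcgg
The Adrb1 window holds 24 CpG and the Adra2a window 22, against a median of 6 over 32851 such windows. Both strands were searched: each window has 1 GC box, found in 32.7% of all windows, and 1 TGACG, the core of the cyclic AMP response element, found in 17.8%. The full element TGACGTCA occurs in neither and in 1.5% of all windows. The Adra2a window also has 1 TATAAA, found in 12.4%. These matches describe the letters in the windows, and the high CpG content was shared by a gene with 232 to 878 counts and a gene with 0 to 8.

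Levels of different genes were compared per length, as CPM per kilobase of the longest GENCODE M21 transcript. On that scale the median over columns was 78.5 for Adrb3, 20.5 for Adra1a, 11.0 for Adrb1 and 6.53 for Adra1d. Then came Adra2c at 0.130, Adra2b at 0.0868, Adra2a at 0.0347 and Adra1b at 0.0169. Adrb3 and Adra1a did not overlap, since the lowest Adrb3 value of 46.7 stood above the highest Adra1a value of 22.8. Adrb3 exceeded Adra1a 2.73 to 6.65-fold within a column.

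Neighbouring ranges overlapped from there down, with 1 exception. Adra1a was above Adrb1 in 9 of 9 columns, by 1.23 to 3.20-fold, although their ranges over columns overlapped. Adrb1 was above Adra1d in 9 of 9 columns, by 1.17 to 2.93-fold, also with overlapping ranges. Between Adra1d and Adra2c there was a wide break, from at least 2.97 down to at most 0.319 CPM per kilobase. The order below it is not settled by these counts: Adra2c was above Adra2b in 6 of 9 columns, Adra2b above Adra2a in 7 of 9 and Adra2a above Adra1b in 5 of 9.

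The place of Adra1a depends on the length used, because its annotated exons together span 8728 bases and its longest transcript 4282. Per kilobase of all exons, Adra1a had a median of 10.1 and Adrb1 of 9.58, and Adra1a was above in 5 of 9 columns. Per kilobase of coding length the medians were 62.7 and 23.2, without overlap. Adrb3 was the highest of the 8 in 9 of 9 columns under each of these lengths.

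**Figure D1:**
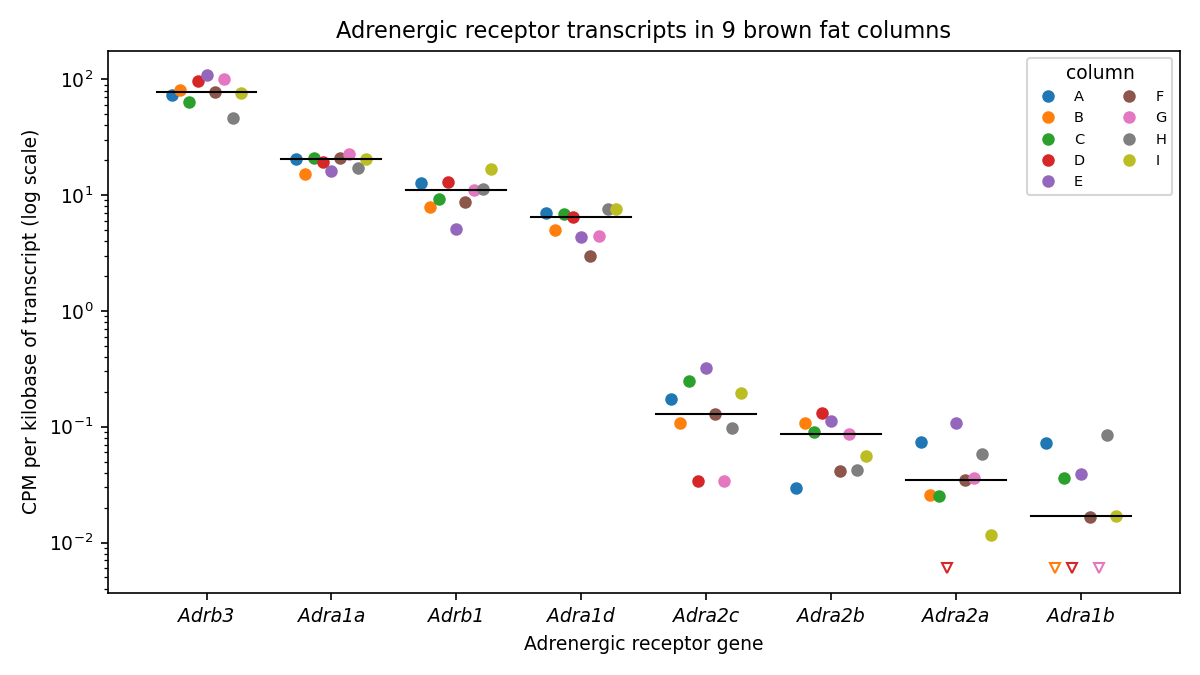
Level of each adrenergic receptor gene in CPM per kilobase of its longest transcript (log axis), 1 coloured point per column of the count table, with a black line at the median; open triangles at the bottom mark columns with a count of 0. Adrb3 lies at 46.7 to 108, and 4 genes lie at or under 0.319, apart from the other 4.

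As a share of the 8 receptors per kilobase, Adrb3 made up 56.3% to 80.5% of the level in a column, with a median of 70.5%. The share of Adra1a was 12.1% to 20.7%, that of Adrb1 3.78% to 13.7% and that of Adra1d 2.67% to 9.19%. These shares depend on the length used: the median of Adra1a was 16.9% on this scale, 10.55% per kilobase of all exons and 22.2% per kilobase of coding length, and that of Adra1d was 4.82%, 6.09% and 2.32%. The beta receptors Adrb3 and Adrb1 together exceeded the alpha-1 receptors Adra1a and Adra1d together by 2.34-fold in column H to 5.49-fold in column E. These are transcript levels, and the amount of receptor protein was not measured.

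**Figure D2:**
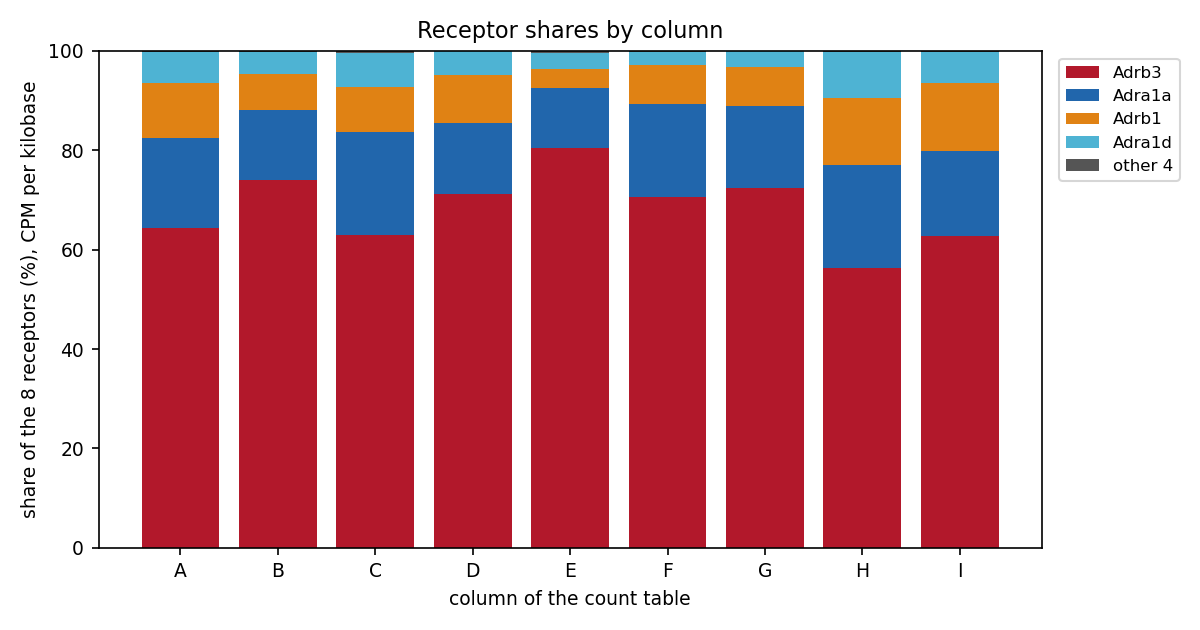
Share of each receptor in the summed level of the 8, in percent of CPM per kilobase, 1 bar per column in the order of the count table. Adrb3 fills 56.3% (column H) to 80.5% (column E) of each bar, and the 4 lowest genes are barely visible.

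The balance between the receptors varied from column to column. Adrb3 was 5.75 times Adrb1 per kilobase in column A, 10.3 times in B, 6.89 times in C, 7.48 times in D, 21.3 times in E, 9.03 times in F, 9.20 times in G, 4.17 times in H and 4.57 times in I. Column E stands apart in this ratio on the linear scale. It also held the highest summed level of skeletal muscle markers, 3020 CPM, of smooth muscle and pericyte markers, 571 CPM, and of fibroblast markers, 334 CPM, and their part in the ratio was not tested. Adra1a was 2.24 to 7.06 times Adra1d, with the highest value in column F.

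The spread over columns exceeded counting error for each of the 4 receptors above 1 CPM. The coefficient of variation (the SD over the mean) of Adrb3 was 23.7%, where counting alone gives 1.6%. It was 31.9% against 4.3% for Adrb1 and 28.8% against 7.3% for Adra1d. Adra1a had the smallest, 13.1% against 2.7%. The median over the 12260 genes was 17.4%, and the coefficient of variation was lower than that of Adrb1 in 83.9% of them, of Adra1d in 79.6%, of Adrb3 in 70.2% and of Adra1a in 27.8%. Adra1a thus varied less than most genes and the other 3 more, over columns whose guides are unknown. The genes compared reach down to a mean of 1 CPM, where counting error is larger. Genes of like level were not compared separately. For the 4 low genes the coefficient stood nearer to that of counting, for example 46.8% against 43.8% for Adra2b and 64.0% against 34.2% for Adra2c.

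Whether the receptors rose and fell together over the 9 columns was examined by ranks, in 6 pairs. For each receptor an exact permutation test of Spearman's rho (two-sided, all pairings) was run against the other 12259 genes above 1 CPM, with Benjamini-Hochberg adjustment over all of them. At an adjusted p under 0.05, 0% of those genes passed for each of the 4 receptors, and 0 of the 6 pairs did. At an unadjusted p under 0.05, 7.19% of genes passed with Adrb3, 6.81% with Adra1a, 4.60% with Adrb1 and 7.59% with Adra1d, and 2 of the 6 pairs did.

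Those pairs both involve Adra1d. Adrb1 and Adra1d ranked in the same direction (rho = 0.75, exact permutation p = 0.0255, n = 9), with a Pearson's r of log2(CPM + 1) of 0.61 (exact permutation p = 0.0837, n = 9). The rank relation was adjusted to an exact permutation p of 0.868 over the genes set against Adrb1 and 0.516 over those set against Adra1d. Without columns E and I, the columns farthest from the median of Adrb1, r was 0.54 and rho 0.54. Leaving out only column E gave a rho of 0.69 with an exact permutation p of 0.0694, and only column I a rho of 0.64 with an exact permutation p of 0.0962.

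Adrb3 and Adra1d ranked in opposite directions (rho = -0.70, exact permutation p = 0.0432, n = 9), with r = -0.51 (exact permutation p = 0.160, n = 9) and an exact permutation p adjusted to 0.601 for Adrb3 and 0.570 for Adra1d. Without columns E and H r was -0.30 and rho -0.61. Under TMM scaling rho was -0.47 with an exact permutation p of 0.213, and the unadjusted p was also above 0.05 when any 1 column other than F was left out. Neither relation held after adjustment.

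The other 4 pairs had a rho closer to 0. Adrb3 and Adrb1 gave rho = -0.37 (exact permutation p = 0.336) and r = -0.31 (exact permutation p = 0.413), and without columns E and H r was 0.15 and rho -0.04. The negative sign of r, but not that of rho, rests on those columns. Adra1a and Adrb1 gave rho = 0.27 (exact permutation p = 0.493) and r = 0.55 (exact permutation p = 0.125), and without columns B and E r was -0.11 and rho -0.54, so that the positive sign of both rests on those 2 columns. Adrb3 and Adra1a gave rho = -0.13 (exact permutation p = 0.744) and r = 0.08 (exact permutation p = 0.839), with r = 0.06 and rho = -0.07 without columns E and H. Adra1a and Adra1d gave rho = -0.03 (exact permutation p = 0.948) and r = -0.01 (exact permutation p = 0.979), with r = -0.49 and rho = -0.50 without columns B and E. The adjusted p of these 4 pairs was between 0.821 and 0.998 by the exact permutation test. A relation over these columns cannot be told apart from a difference between the guides.

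**Figure D3:**
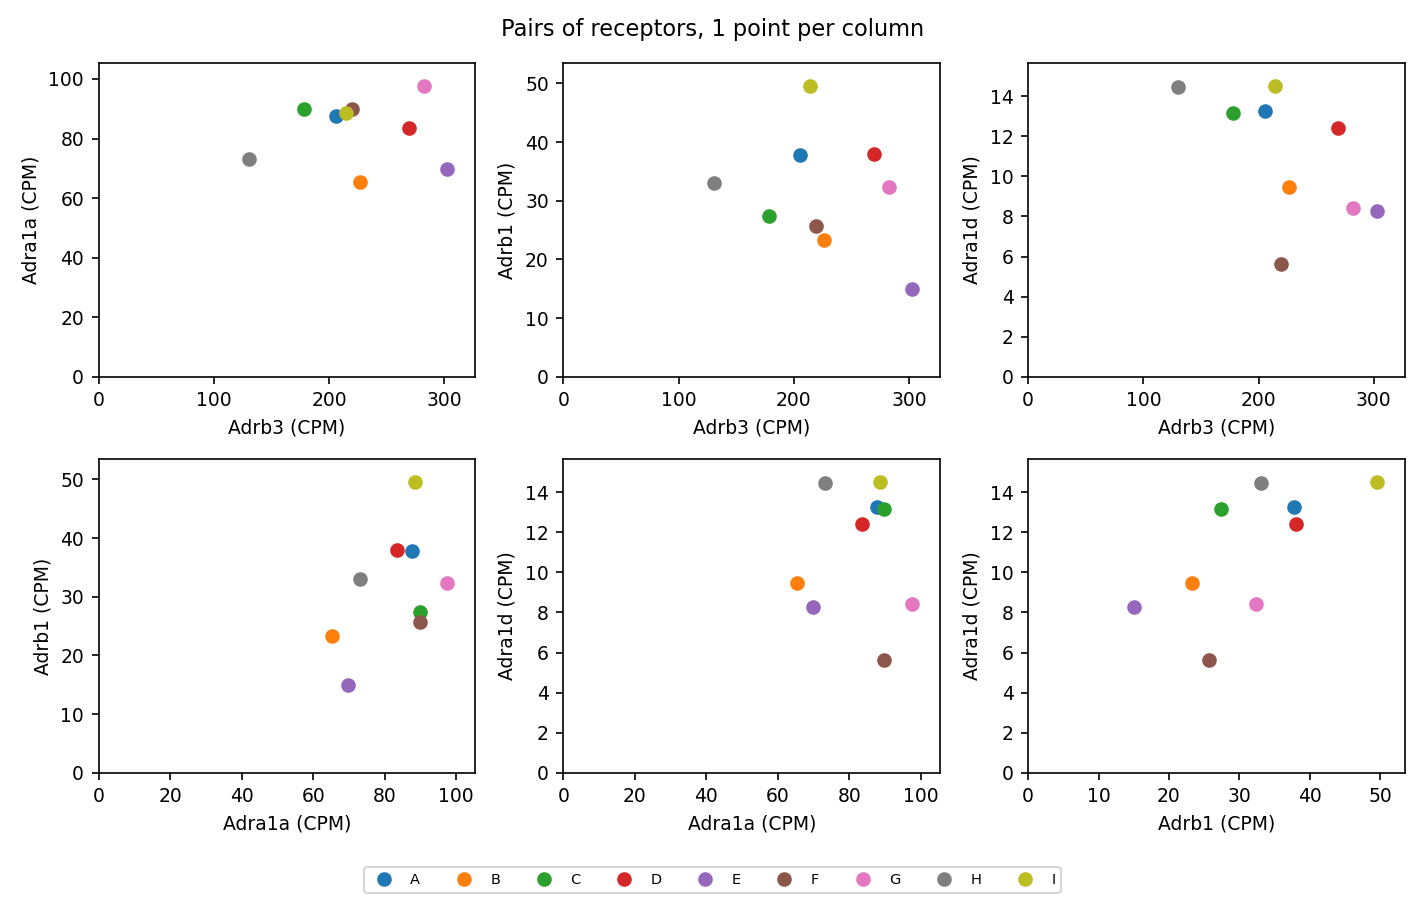
CPM of 1 receptor against another for the 6 pairs of Adrb3, Adra1a, Adrb1 and Adra1d, 1 coloured point per column, linear axes from 0. Adrb1 and Adra1d had the highest rho (0.75) and Adrb3 and Adra1d the lowest (-0.70), and none of the 6 pairs passed the adjusted test. Column E lies at a corner in the panels with Adrb3 and Adrb1.

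The genes whose rank over the 9 columns was most like each receptor's were taken among genes with a mean of at least 5 CPM, 3 for each. For Adrb3 they were Ptprs, a receptor-type tyrosine phosphatase (rho = 0.97, 6.58 to 14.0 CPM), Mmp15, a membrane-bound metalloproteinase (rho = 0.95, 14.0 to 33.3 CPM), and Esyt1, an extended synaptotagmin of membrane contact sites (rho = 0.92, 52.0 to 69.7 CPM). Each of these was, like Adrb3, lowest in column H and highest in column E. For Adra1a they were Tapt1 (rho = 0.95, 28.4 to 44.6 CPM), the nucleotide sugar transporter Slc35b4 (rho = 0.93, 17.3 to 26.7 CPM) and Cmtm4 (rho = 0.93, 107 to 194 CPM). All 3 were lowest in column B, as Adra1a was.

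For Adrb1 the genes were Thada, Gpr155 and Cgnl1, the last encoding a protein of epithelial and endothelial junctions, each with rho = 0.97 and each highest in column I. For Adra1d they were Sbno2, a transcriptional regulator (39.9 to 71.0 CPM), the AMP deaminase gene Ampd3 (44.2 to 93.3 CPM) and the corepressor gene Bcor (8.60 to 16.9 CPM), each with rho = 0.97 and each lowest in column F. The smallest exact permutation p that 9 columns allow is 5.51e-06, and the smallest adjusted p by the exact permutation test was 0.477 for Adrb3, 0.628 for Adra1a, 0.405 for Adrb1 and 0.184 for Adra1d. None of these 12 genes therefore passed, and being the closest of all the genes compared fixes their high rho.

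The genes that carry the signal inside the cell were present at levels from far below to far above the receptors. Of 75 pathway genes in 8 lists, all in the table, 63 had a mean of at least 1 CPM. Of the 8 receptor-coupled G protein genes 7 did. Gnas, the gene of the stimulatory alpha subunit used by beta receptors, had a median of 967 CPM per kilobase, beside 78.5 for Adrb3. That value depends on the length used, since the longest of 24 Gnas transcripts has 3947 bases and the exons together 11186. Gnai2, an inhibitory alpha subunit, had a median of 64.1. Gnaq and Gna11, the alpha subunits of alpha-1 signalling, named here for that role, had medians of 6.93 and 25.2.

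Of 10 adenylyl cyclase genes, which make cyclic AMP, 7 reached the mean of 1 CPM. Adcy3 led with 41.4 to 120 CPM per kilobase and Adcy6 followed with 25.6 to 36.7. Adcy3 was the more uneven, with a 2.89-fold range from 233 CPM in column D to 672 CPM in column I, against 1.43-fold for Adcy6. All 6 protein kinase A subunit genes reached it, led by the regulatory subunit gene Prkar2b (median 316 CPM per kilobase) and the catalytic subunit gene Prkaca (132). Of 10 phosphodiesterase genes, which break cyclic AMP down, 9 did, with Pde3b at a median of 47.3 and Pde4a at 22.6 CPM per kilobase.

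All 9 genes of receptor kinases, arrestins and RGS proteins, which damp receptor signalling, reached the mean of 1 CPM. Rgs5, also a pericyte marker, had a median of 58.2 CPM per kilobase, and the receptor kinase gene Grk3 16.7. In the phospholipase C arm 8 of 10 did, with the calcium channel genes Itpr1 at 16.1 and Itpr2 at 13.0 CPM per kilobase, on the order of the 20.5 of Adra1a.

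Genes for noradrenaline itself split by role. The breakdown gene Maob had a median of 38.7 CPM per kilobase, and 4 of the 9 listed genes reached a mean of 1 CPM. The synthesis and nerve transporter genes did not: Th had 0 to 3 counts a column, Ddc 0 to 6, Slc18a2 0 to 3, Slc6a2 0 to 2 and Dbh 0 in all 9. The sympathetic nerve marker list, which shares Th, Dbh, Slc18a2 and Slc6a2 with it and adds Npy (0 in all 9), summed to 0 to 0.323 CPM. The transcripts of nerve cell bodies were thus at or near 0 in this tissue.

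Genes known to respond to adrenergic stimulation in brown fat differed widely in their spread over the columns. All 13 had a mean of at least 1 CPM. The lipase genes Pnpla2 and Lipe were the highest, with medians of 1653 and 399 CPM per kilobase, and ranged 1.49-fold and 1.37-fold. Chosen after their values were seen, the early-response gene Nr4a1 ran from 7.99 CPM in column B to 349 CPM in D, Ppargc1a, a coactivator of mitochondrial genes, from 46.7 CPM in C to 392 CPM in F, and Elovl3, a fatty acid elongase, from 151 CPM in E to 828 CPM in I. Column E, highest for Adrb3, held the highest level of 0 of these 13 genes, as did columns A, B and G. This tally includes Fos, Fosb and Fgf21, with medians of only 0.670, 0.226 and 0.619 CPM, whose means rest on their highest columns. The same tally over all genes is not given here, so the 0 has no background to be read against.

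None of the 63 pathway genes passed the adjusted rank test with Adrb3, Adra1a, Adrb1 or Adra1d, as 0% of all genes did. At an unadjusted p under 0.05 by the exact permutation test, 1 of the 63 ranked in the same direction as Adrb3 and 5 in the opposite, where 1.88% and 5.31% of all genes did. With Adra1a 2 ranked in the same and 1 in the opposite direction, against 5.07% and 1.74% of all genes. With Adrb1 these were 1 and 2, against 2.21% and 2.39%, and with Adra1d 3 and 1, against 4.80% and 2.80%. The median rho of the 63 genes was -0.08 with Adrb3, against -0.12 over all genes, and 0.20 with Adra1a, against 0.12.

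**Figure D4:**
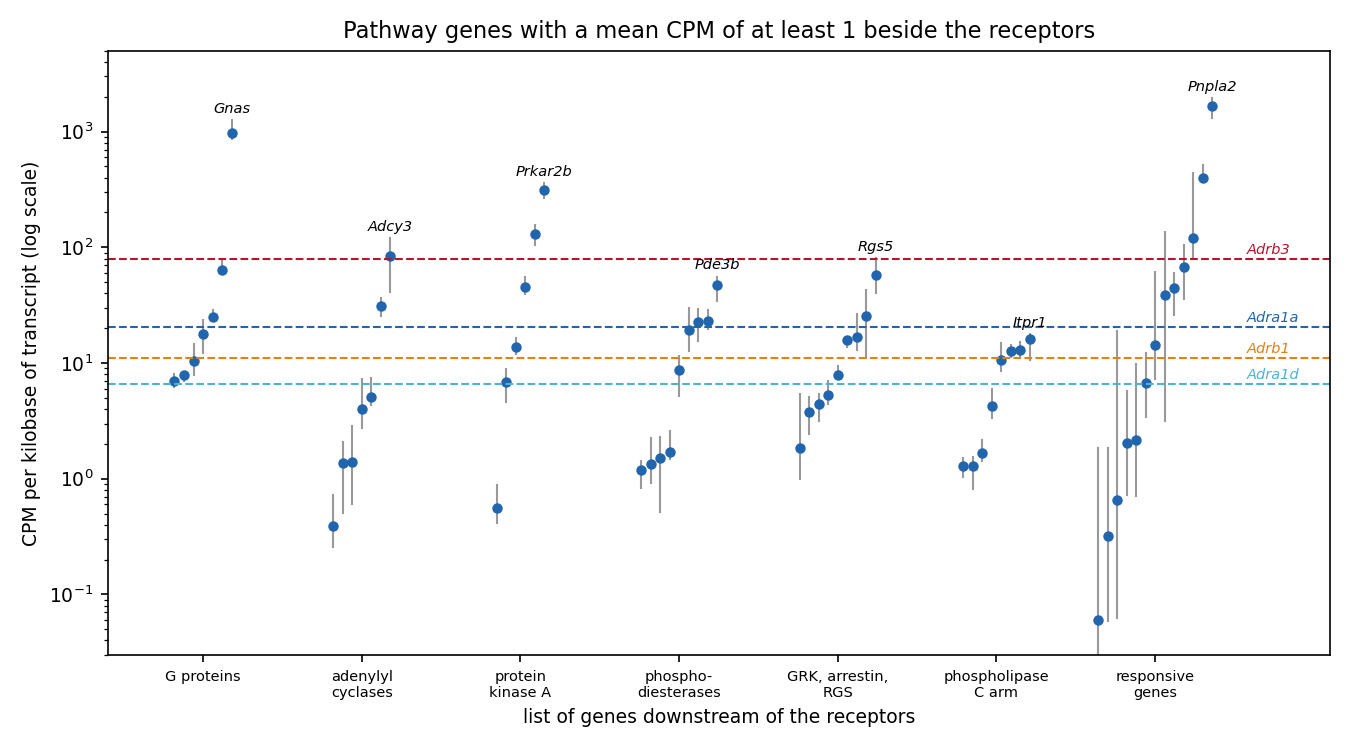
Level of each pathway gene with a mean of at least 1 CPM in 7 of the 8 lists (noradrenaline handling is not drawn), in CPM per kilobase (log axis); points are medians over 9 columns, grey lines run from the lowest to the highest column, lines that reach the lower edge include a count of 0, and dashed lines mark the medians of 4 receptors. Gnas (median 967) and Pnpla2 (1653) lie above Adrb3 (78.5), and the responsive genes have the longest lines.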

How the data were processed

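RNA of 9 brown fat samples was sequenced. The authors deposited raw counts, whole numbers per Ensembl gene identifier, in 9 columns. The submitters' processing notes name FastQC, STAR, DESeq2 and the build GRCm39, without versions or roles. How strand and multiple hits were handled, and with which annotation, is not given in the sources used here. Column names match no sample, so all 9 were used as BAT columns and 0 were left out. Symbols matched 52083 of 55416 identifiers. Column pairs all differed by more than sampling noise (lowest chi-square per degree of freedom 10.9 over 36 pairs). CPM used the column sum (15460829 to 17909534 counts, so 3 counts are 0.168 to 0.194 CPM). Lengths came from GENCODE M21 (GRCm38), a different build from the authors', and no gene coordinates were carried over. Ranks were tested with numpy 2.4.6 over 362880 pairings, and the test was checked on simulated data. Alternatives used edgeR 4.0.16 (TMM) and DESeq2 1.42.0 size factors. The members and lists were chosen with earlier results of these data known. Named genes were the members, Ucp1, the 3 most alike genes per receptor and the 2 genes with the highest mean CPM per pathway list; other genes were chosen by role or after their values were seen, and 1 gene of the rule is not reported here. Each p-value is the share of all pairings of the columns that give a coefficient at least as strong. The differences between these columns may be partly technical.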

Additional observations from a re-analysis of the deposited data

Results flagged for a closer look

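Of 24 values examined for a column far from the others, 2 met Dixon's criterion, under which chance picks about 1 group in 20. The ratio of Adrb3 to Adrb1 per kilobase was 21.3 in column E, with the next column at 10.3. On the linear scale of this ratio the gap is 0.645 of the whole range, above the critical 0.493 for 9 values. The outcome depends on the scale, and none is given here for the log2 or the inverse ratio. The same column had the highest Adrb3 (303 CPM) and the lowest Adrb1 (15.0 CPM).

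The summed level of 5 immune markers was 20.5 CPM in column H, with the next column at 13.2, a gap of 0.588 of the range. Adrb3 was lowest in the same column (130 CPM), and the part of immune cells in that level was not tested.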

How the results depend on the processing

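The count of receptor pairs past the adjusted threshold was 0 under all 13 alternatives run, namely TMM, DESeq2 size factors, no filter, the column sum without the mitochondrial genome (chosen after seeing the data) and each column left out; the exact permutation test called no gene for any receptor there, and with 8 columns its smallest p is 4.96e-05. The unadjusted p was under 0.05 for 2 of the 6 pairs, for 1 under TMM and under DESeq2 size factors, for 0 without the mitochondrial genome, and for 0 to 2 with a column left out. Without the mitochondrial genome Spearman's coefficient of Adrb1 and Adra1d, 0.75, was 0.48 (exact permutation p = 0.194). That of Adrb3 and Adra1d, -0.70, was -0.50 (exact permutation p = 0.178). The weak coefficients changed sign. Spearman's coefficient of Adrb3 and Adra1a, -0.13, became 0.20 under TMM, 0.22 under DESeq2 size factors and 0.12 without the mitochondrial genome, and ranged from -0.45 to 0.17 with a column left out. That of Adra1a and Adra1d, -0.03, became 0.12 without the mitochondrial genome and ranged from -0.29 to 0.21 (0.17 without column G and 0.02 without H), and that of Adra1a and Adrb1, 0.27, ranged from -0.02 to 0.38. The cause was not tested. Leaving out the mitochondrial genome raises every level by 0.36 to 0.60 on the log2 scale. The rise is 0.55 to 0.60 in columns A to E and 0.36 to 0.44 in columns F to I. The median share of Adrb3, 64.3% of CPM, was 70.5% per kilobase and 61.9% to 65.5% with a column left out; its length-based alternatives by coding sequence and by all exons were added after seeing the data.

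The alternatives planned for the rank relation with Ucp1 were not run, since no coefficient over its clusters was given. No paired analysis was possible because neither replicate numbers nor guides stand in the column names. Depth limits Adra1b, Adra2a, Adra2b and Adra2c, at 0 to 17 counts a column.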

Other observations

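Ucp1 stood at 3848 CPM in column A, 4620 in B, 3937 in C, 2704 in D, 3652 in E, 396 in F, 606 in G, 445 in H and 459 in I. These columns were not split by this level for any comparison of the receptors.

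Fgf21, a secreted factor known to respond to adrenergic stimulation, had 1 to 324 counts a column. It was highest in column F at 18.1 CPM, the column with the highest Ppargc1a (392 CPM) and the lowest Adra1d (5.64 CPM). In columns H and I, where Adra1d was highest (14.5 CPM in both), Fgf21 stood at 1.63 and 1.86 CPM. In column G Fgf21 stood at 3.775 CPM and Adra1d at 8.42 CPM. Fgf21 was thus higher in each of columns F to I than in any of columns A to E, at most 0.619 CPM. Columns F to I are also the lower Ucp1 cluster, and a relation of Fgf21 to that cluster was not tested. Over the 9 columns Fgf21 and Adra1d gave a rho of -0.18 (exact permutation p = 0.644).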
